A study of Homo sapiens with 12 samples.

Results

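The map of N4-acetylcytidine (ac4C) sites that remained in HK-2 cells labelled as NAT10 knockout (KO) was taken from 3 deposited site lists, 1 for each KO pair of an antibody pulldown (IP) and its starting RNA (input). These lists rest on 6 of the 12 samples of the series (3 KO IP and 3 KO input), and every mRNA list of that genotype was used. They are the authors' lists for mRNA, so sites in other RNA are not described here. They held 13818, 17872 and 19136 sites, 50826 in all. HK-2 is an immortalised cell line from the human kidney proximal tubule, and no treatment was named for any sample. The sample labels call the genotype NAT10 knockout, whereas the text of the series calls it KD, and how the gene was targeted and whether the line is 1 clone are not stated in the labels. The other 6 samples are wild-type IP and input and were not analysed here. In this assay RNA is fragmented, an antibody against ac4C recovers the fragments it binds, and the recovered and starting RNA are both sequenced. A site is a stretch of the genome where the authors' peak caller found more IP than input. Nothing in the labels says that the replicates came from separate cultures, so the spread between lists may be technical.

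ac4C is a cytidine with an acetyl group on its base. NAT10 is the acetyltransferase that writes it in human ribosomal, transfer and messenger RNA, and THUMPD1 is the adaptor that NAT10 needs on transfer RNA. In messenger RNA the mark has been linked to stability and translation, and NAT10 has been studied in kidney fibrosis, the setting that the title of the series names. A site in these lists is enrichment by the antibody, and the lists alone do not show which nucleotide was bound.

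NAT10 itself, the targeted gene, had 2, 5 and 9 sites in KO lists 1, 2 and 3 (5.33 ± 3.51, SD, n = 3). Its highest fold enrichment of IP over input was 7.47, 6.08 and 8.47 in lists 1, 2 and 3. The sites fell in 10 separate regions, of which 1 was found in all 3 lists, 4 in 2 lists and 5 in 1 list. The region found in every list lay in the coding sequence at chr11:34161947-34162119 in lists 1 and 2, and at chr11:34161947-34162087 in list 3, with folds of 7.47, 6.08 and 4.95. The authors' false discovery rate for it was high, at 91.3%, 64.4% and 56.9% in lists 1, 2 and 3. No NAT10 site of list 1 had a rate below 91.3%. A second coding region, at chr11:34162648-34162755 in list 1 and 1 base longer in list 3, had folds of 6.72 and 8.47 and no site in list 2. Fragments of NAT10 RNA were thus listed in each KO pair, but a site list gives no transcript level and cannot check the knockout. THUMPD1 had no site in any KO list.

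Per site, the files give a score, which is the negative log10 of the p-value times 10, the fold enrichment, a false discovery rate in percent, the length and the part of the transcript. All are the authors' own values for single sites. The lists hold no read counts, so sequencing depth is unknown and no counting interval was computed for any site. The false discovery rate was high throughout. Its lowest value was 14.1%, 16.1% and 11.3% and its median 75.3%, 62.2% and 47.6% in lists 1, 2 and 3. Sites with a rate over 50% made up 62.4%, 68.1% and 43.2% of the lists. No KO site therefore passed a rate of 10% as deposited, and the counts below are counts of listed sites. Coordinates are those of the files, with starts counted from 1. They are not GRCh38 positions, although the submitters' processing notes name hg38, and the sources used here do not give their build.

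The same regions came back in most lists. Sites of the 3 lists that overlapped by at least 1 base were merged into 22529 regions. All 3 lists had a site in 11526 of them (51.2%), exactly 2 lists in 5135 (22.8%) and 1 list in 5868 (26.0%). Regions found in all 3 lists held 83.7%, 64.6% and 60.5% of the sites of lists 1, 2 and 3. The shortest list was thus the one most contained in the others. The overlap of 2 lists, as the Jaccard index (regions with a site in both over regions with a site in either), was 0.643 between lists 1 and 2, 0.594 between lists 1 and 3, and 0.690 between lists 2 and 3. Its mean was 0.643 ± 0.0481 (SD over 3 pairs, which share lists).

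**Figure D1:**
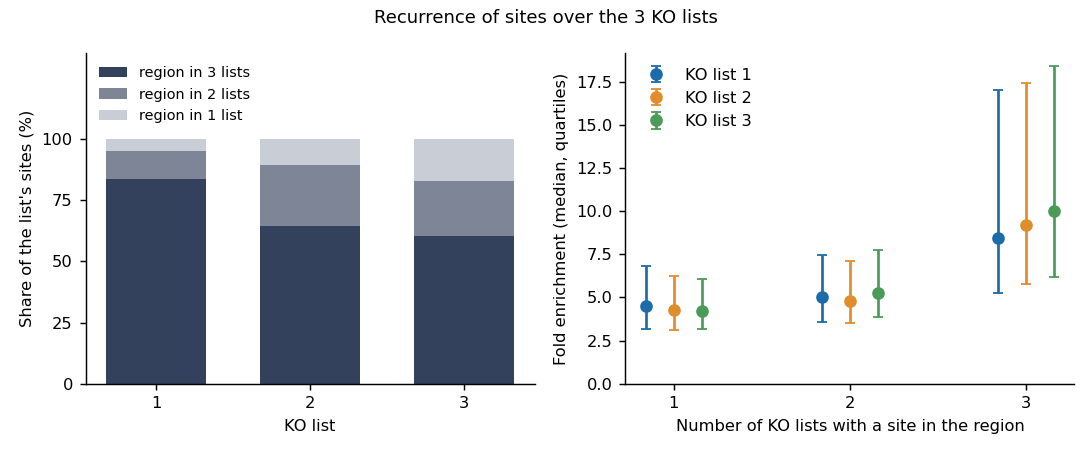
The left panel shows the share of the sites of each KO list (%) that lay in regions found in 3, 2 or 1 of the lists, and the right panel the median fold enrichment of those sites with quartiles as bars. Regions in all 3 lists held 83.7%, 64.6% and 60.5% of sites, and their median folds of 8.46, 9.22 and 9.99 stood above those of regions in 1 list, at 4.51, 4.26 and 4.24.

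Recurrent sites were also the more enriched ones. Sites in regions of all 3 lists had a median fold of 8.46, 9.22 and 9.99 in lists 1, 2 and 3, against 4.51, 4.26 and 4.24 for sites in regions of 1 list. The list 1 value leaves out 474 sites that could not be rejoined to their coordinates, whose median fold was 48.3. The median score was 455, 506 and 483 for regions of all 3 lists, against 109, 95.6 and 98.4 for regions of 1 list. A fold of at least 4 was reached by 92.8% of the sites of list 3 in regions of all 3 lists, against 55.8% of its sites in regions of 1 list. Recurrent sites were longer as well, with medians of 186, 187 and 186 bases against 158, 133 and 146.5 bases. These values describe the lists and were not tested, because whether a site reaches a list depends on its own score.

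Within the shared regions the fold of a region was similar from list to list. Over 11010 regions with 1 fold in each list, the highest of the 3 folds was at the median 1.44 times the lowest, and 86.1% of regions stayed within 2-fold. Spearman's rho of the fold was 0.880 between lists 1 and 2, 0.848 between lists 1 and 3, and 0.899 between lists 2 and 3, across regions, which share a library within a list and are not independent replicates. The boundaries often agreed to the base. Of 28857 distinct pairs of start and end, 7627 occurred in all 3 lists. The lists were not copies of each other, since only 27, 12 and 30 of the 9733, 8384 and 10854 sites with equal boundaries in lists 1 and 2, 1 and 3, and 2 and 3 also had an equal fold. Equal boundaries were most frequent in the coding sequence. There 76.7%, 76.8% and 76.7% of the sites in shared regions had the same start and end in all 3 lists, against 37.8%, 38.0% and 37.7% in the 3′ UTR. Whether such boundaries coincide with exon ends was not tested.

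The size and strength of a typical site differed little between the lists. The median length was 178, 171 and 172 bases (174 ± 3.79, SD, n = 3), close to the fragment size of about 200 bases that the protocol names. A 10th percentile of 54, 51 and 53 bases and a 90th percentile of 532, 506 and 506.5 bases bounded most sites. Sites under 20 bases, shorter than a usual read, made up 1.78%, 1.98% and 1.76% of the lists. The median fold enrichment was 7.80, 7.03 and 7.23 (7.35 ± 0.402, SD, n = 3). The upper tail set list 1 apart from lists 2 and 3. Its 90th percentile of fold was 41.9, against 28.3 and 27.1, and 3.61% of its sites had a fold of at least 100, against 2.32% and 2.17%. Folds of at least 1000 were found at 29, 33 and 31 sites.

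**Figure D2:**
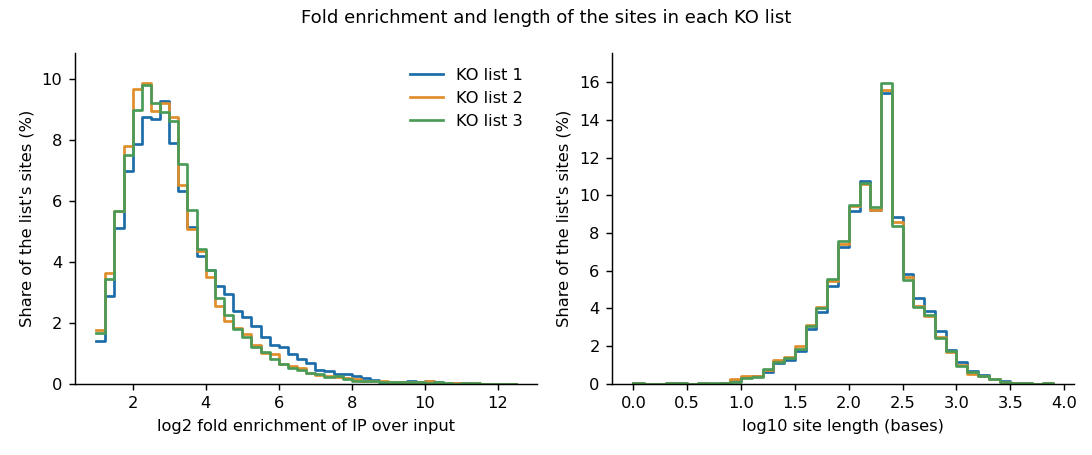
Both panels show the share of each KO list's sites (%), on the left by log2 fold enrichment of IP over input and on the right by log10 length in bases. The 3 curves lie close together around median folds of 7.80, 7.03 and 7.23 and median lengths of 178, 171 and 172 bases, and list 1 has more sites at the high end of the fold.

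By part of the transcript, as the authors annotated it, most sites lay in the coding sequence. Its share was 55.7%, 56.5% and 56.3% in lists 1, 2 and 3 (56.2% ± 0.406, SD, n = 3). Sites at the start codon made up 14.6% ± 0.347 and sites at the stop codon 13.4% ± 0.372. The 3′ UTR held 8.76% ± 0.122 of the sites and the 5′ UTR 7.09% ± 0.166. Each of these shares varied by less than 1 percentage point between the lists. Without the transcriptome's own share of each part, which the files do not hold, these shares cannot be read as preferences of the antibody or of the mark.

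The parts differed in length more than in fold. Coding sites were the shortest, with median lengths of 125, 121 and 121 bases, and stop codon sites the longest, with 371, 354 and 350 bases. The stop codon class accordingly held 28.3%, 27.2% and 28.6% of all listed bases, and the coding sequence 36.5%, 37.2% and 36.4%. The median fold was highest at the start codon in each list, at 8.27, 8.25 and 8.51, and lowest in the 3′ UTR, at 7.28, 6.14 and 6.50. The list 1 folds by part leave out the 474 sites that could not be rejoined, whose median fold was 48.3. The quartiles of these classes overlapped widely, with list 2 reaching from 5.18 to 14.6 at the start codon and from 4.03 to 11.4 in the 3′ UTR. Start codon sites also recurred most often in lists 1 and 3, where 86.4% and 65.2% of them lay in regions of all 3 lists. In list 2 the stop codon stood first with 70.1%, and the start codon followed with 68.4%. Among the sites in regions of all 3 lists, over the lists together, 15.4% lay at the start codon, against 11.6% of the sites in regions of 1 list. The coding sequence went the other way, with 55.1% in regions of all 3 lists against 60.9% in regions of 1 list.

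**Figure D3:**
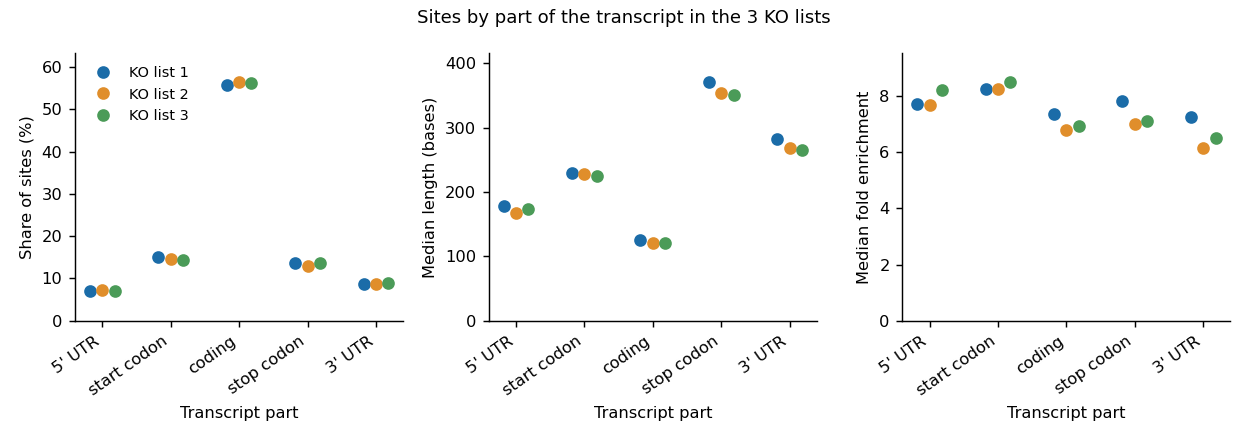
The 3 panels show, for each part of the transcript and each KO list, the share of sites (%), the median length in bases and the median fold enrichment. The coding sequence holds 55.7% to 56.5% of sites with the shortest lengths, stop codon sites are longest at 350 to 371 bases, and start codon sites have the highest median fold in each list at 8.25 to 8.51, the folds of list 1 being those of its rejoined sites.

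At the level of genes, the lists named 6698, 7658 and 7894 genes, 8524 in all. Of these, 6216 (72.9%) had a site in all 3 lists, 1294 in 2 and 1014 in 1. Genes thus recurred more than regions, with a mean Jaccard index of 0.812 ± 0.0359 (SD over 3 pairs) against 0.643 for regions. A gene counts as shared even where its sites lie in different regions, which by itself raises its index. Of 20056 protein-coding genes in the reference table, 6093 (30.4%) had a site in all 3 KO lists and 8314 (41.5%) in at least 1. These background shares stand beside every gene group below. A site needs a transcript in the input, so a gene without one may lack the mark, the transcript or the depth, and these cannot be told apart here.

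Most genes carried few sites. A gene with a site held on average 2.06, 2.33 and 2.42 sites (2.27 ± 0.188, SD, n = 3), with a median of 2 in each list, and genes with 1 site made up 49.0%, 43.2% and 41.8%. Genes with at least 10 sites numbered 35, 79 and 101, and 32 genes reached 10 in every list. Of the 6216 genes in all 3 lists, 2764 (44.5%) had the same number of sites in each, among them 1704 (27.4%) with exactly 1. Coding sites occurred in all 3 lists in 3514 genes (56.5% of the 6216), start codon sites in 1653 (26.6%), stop codon sites in 1489 (24.0%), 3′ UTR sites in 859 (13.8%) and 5′ UTR sites in 725 (11.7%). Sites at both the start and the stop codon in every list were found in 244 genes.

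The 15 genes with the most sites were described next, and transcript length, which differs between genes, was not examined. HERC2, a giant ubiquitin ligase of the DNA damage response, had 17, 25 and 26 sites in lists 1, 2 and 3. EP400, the ATPase of a chromatin remodelling complex, had 19, 24 and 23. They fell in 28 regions in HERC2 and 25 in EP400, of which 16 in each gene were found in all 3 lists. For EP400 only 17 of the 19 list 1 sites were rejoined to coordinates and counted, so its 16 may be too low. Also among the 5 genes with the most sites were PRRC2B, a proline-rich coiled-coil protein, with 16, 19 and 20 sites, and TRRAP, the scaffold of histone acetyltransferase complexes, with 15, 17 and 23. All rejoined sites of TRRAP lay in the coding sequence (14, 17 and 23).

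A further 10 genes averaged at least 13 sites per list. Among these were TNRC18 (14, 18 and 18 sites), the nucleolar assembly factor URB1 (14, 16 and 20), the ubiquitin ligase UBR4 (13, 16 and 18), and HSPG2, the basement membrane proteoglycan perlecan (13, 15 and 16). The dynein motor chain DYNC1H1 had 12, 15 and 16 sites, the membrane repair protein dysferlin (DYSF) 9, 16 and 17, and the tubulin folding cofactor TBCD 12, 15 and 15. The Wnt co-receptor LRP5 had 13, 13 and 15, and the centrosome scaffold PCNT 9, 17 and 14. In 9 of the 15 genes with the most sites list 1 had the fewest and list 3 the most, which is also the order of the lists by total number of sites.

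MYH9, the heavy chain of non-muscle myosin IIA, was the 1 gene of these 15 with the same number in each list, 14. In list 1, 2 of its sites could not be rejoined to coordinates. Its other sites fell in 15 regions, 10 of them with a rejoined site in all 3 lists. A coding site at chr22:36682764-36682892 had the same boundaries in every list and folds of 31.2, 32.2 and 33.4. Another at chr22:36685131-36685343 had folds of 30.2, 30.2 and 31.2. Its highest fold, 54.1, 57.7 and 77.1, belonged in lists 2 and 3 to chr22:36696897-36697103. By coordinates alone list 1 also had a site in that region, but it could not be paired with a gene or a fold. The count of 10 leaves that region out and is too low. A 5′ UTR site at chr22:36783852-36784112 was found in every list at folds of 4.83, 4.00 and 4.32.

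The strongest enrichments were then ranked by gene. Ranked by the lowest of the 3 lists' highest folds, over sites of at least 50 bases, the first was ZNF280A, a zinc finger gene, with 1 site per list and folds of 4273, 4385 and 4394. That site lay in the 5′ UTR at chr22:22874464-22874613 in lists 2 and 3, and the list 1 site could not be rejoined. ATXN2, which encodes the RNA-binding protein ataxin 2, followed with a start codon site at chr12:112036817-112037187 in every list, at folds of 2166, 2790 and 2674. Its other sites were coding and far weaker. The next strongest ATXN2 site, at chr12:111893855-111894060, had folds of 18.1, 16.1 and 15.6.

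TRPC7, a cation channel, had 1 coding site at chr5:135651285-135651426, ending 3 bases later in list 3, with folds of 2067, 2104 and 2095. CER1, a secreted antagonist of BMP and nodal ligands, had 1 start codon site at chr9:14722480-14722713, starting 1 base earlier in list 3, with folds of 2032, 2146 and 2141. Both sites recurred with nearly equal boundaries and folds, and the input reads behind these folds are not given. MAP3K9, a kinase of the MAP kinase cascade, had a stop codon site at chr14:71196854-71197245 with folds of 1906, 2578 and 2214. Its boundaries in list 3 were shifted by 2 and 3 bases. FAM118B had folds of 2051, 2124 and 2081, in list 2 at the start codon and in list 3 in the coding sequence, so the highest sites were not the same region.

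Among the remaining genes of this ranking, NQO2, a quinone reductase, had a single 5′ UTR site at chr6:3003903-3004023 with folds of 2521, 2519 and 1438. NFIB, a transcription factor of the NFI family, had folds of 1356, 2955 and 2172 at a coding site, chr9:14146688-14146761 in lists 1 and 2. List 1 had the lowest NFIB fold and list 3 the lowest NQO2 fold, so the lists were not ordered alike. SLC35D1, a nucleotide sugar transporter of the endoplasmic reticulum, had 1 site, in the 3′ UTR at chr1:67465451-67465790 in list 1 and 1 or 2 bases longer in lists 2 and 3, with folds of 1421, 1457 and 1326. BCL7A, a subunit of BAF chromatin remodelling complexes, had a start codon site with folds of 1363, 1254 and 1344. The mitochondrial AMPylase SELENOO had one with folds of 1301, 1057 and 1220. The other 4 genes were HABP4, the metalloprotease PAPPA, the lipid transporter ABCA12 and TMTC4, with folds between 1022 and 1756.

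ABCA12 shows how alike the lists could be. It had 4 coding sites in each list, in 4 regions found in all 3. At chr2:215928837-215928942 the folds were 1027, 1108 and 1070, and at chr2:215976320-215976369, 1 base longer in list 3, they were 1026, 1108 and 1075. The other sites, at chr2:215865623-215865744 and chr2:215866282-215866359, had folds of 81.3, 60.01 and 60.2, and of 80.5, 61.1 and 65.4. In every list the first pair of sites had folds above 1000 and the second pair folds of 60.01 to 81.3, while the order within each pair differed between lists.

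A few genes carried sites in most annotated parts of the transcript. MLXIP, which encodes the glucose-sensing transcription factor MondoA, had 9 sites in each list, covering the 5′ UTR, start codon, coding sequence, stop codon and 3′ UTR every time. Of its 11 regions 7 were found in all 3 lists. Its strongest site, annotated to the start codon at chr12:122617736-122618534, had folds of 137, 126 and 147. The site in the 3′ UTR had folds of 12.9, 9.61 and 10.7, and the site at the stop codon 5.66, 4.99 and 7.20. CEP164, a protein of the centriole's distal appendages, and the receptor phosphatase PTPRS also held sites in at least 4 parts in every list, as did PRRC2B. PLCXD1 ranked among them too, but its locus occurs on both sex chromosomes and its sites were listed on each, so its number is inflated.

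**Figure D4:**
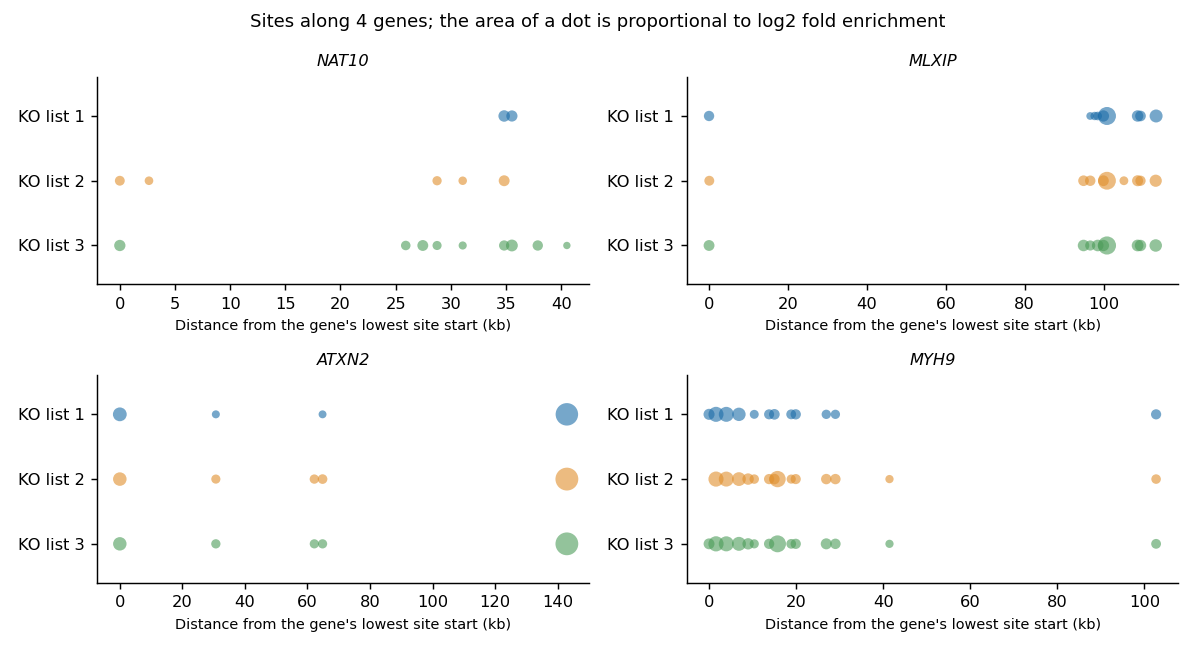
Each dot is a site, placed by its distance in kb from the gene's lowest site start and scaled in area to its log2 fold enrichment, in rows for KO lists 1, 2 and 3. NAT10 has 2, 5 and 9 sites that recur in part, and MLXIP has 9 in each list. ATXN2 has the same dominant site in every list (folds 2166, 2790 and 2674). MYH9 shows 12, 14 and 14 sites, since 2 of list 1 could not be rejoined to coordinates.

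A few sites were far longer than the fragments. In PLEC, the gene of the cytolinker plectin, a site annotated to the stop codon spanned chr8:144989315-144996563, 7249 bases, with the same boundaries in each list and folds of 44.2, 46.5 and 50.2. In SRRM2, a splicing protein, a coding site of 6701 bases at chr16:2811562-2818262 also had equal boundaries, with folds of 10.5, 9.6 and 9.97. A stop codon site of TBC1D16, a regulator of RAB GTPases, was 5695, 5432 and 6754 bases long, with folds of 41.9, 41.1 and 40.1. In MKI67, the gene of the proliferation marker Ki-67, a coding site was 4833, 4858 and 4731 bases long, with folds of 18.7, 18.04 and 19.2. FLG, the gene of the epidermal protein filaggrin, had a site of 7351 bases in list 1, and in lists 2 and 3 the same stretch was divided, with a longest site of 4907 and 4905 bases.

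Gene groups were then read against the background share of 30.4%. Of 40 lists of genes by pathway, complex, family or cell type, 25 had a larger share of members with a site in all 3 lists and 15 a smaller one. Chromatin and nuclear transport stood highest. Of 67 chromatin modifiers and remodellers, 55 (82.1%) had a site in all 3 lists, with EP400, SMARCA4 (11, 12 and 15 sites), the DNA methyltransferase DNMT1 (11, 11 and 12) and the histone methyltransferase KMT2D (9, 12 and 11) holding the most. NSD3, KAT2B, KAT6B and HDAC3 were among the 5 without a site. Of 53 nuclear pore and transport genes, 43 (81.1%) had a site in all 3 lists, led by the membrane-anchoring nucleoporin NUP210 with 9, 10 and 13. Its highest fold was 23.7, 343 and 284, so that of list 1 stood more than 10-fold below those of lists 2 and 3. These are the highest values per gene, and whether they belong to the same region was not examined.

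Lists for RNA and protein synthesis lay on both sides of the background. Of 37 aminoacyl-tRNA synthetases, which charge transfer RNA, 27 (73.0%) had a site in all 3 lists and PARS2 alone had none. EPRS1 had 7 sites in each list with highest folds of 49.99, 41.7 and 51.0. Ribosome biogenesis factors reached 66.7% (38 of 57), led by the ATPase MDN1 with 9, 10 and 15 sites and HEATR1 with 9, 12 and 10. DEAD-box and DEAH-box helicases reached 64.8%, spliceosome and RNA-binding proteins 64.6%, translation factors 54.0% and proteasome subunits 48.7%. Cytosolic ribosomal proteins lay below the background, with 21 of 89 (23.6%), and the median of their highest folds was 5.70, against 12.2 over all genes with a site in all 3 lists. RPS10 and RPS9, of the small subunit, had 2 sites in each list with highest folds of 4.59, 4.72 and 5.48, and of 5.06, 5.75 and 6.89. Mitochondrial ribosomal proteins (24 of 77, 31.2%) lay near the background, with MRPS5 at 6, 7 and 7 sites. Replication-dependent histones reached 5.56% (4 of 72). H3C14 and H3C15, 2 of the 4, encode the same histone H3 and are near-identical copies, so reads can be split between them.

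Ribosomal protein sites also differed in place. Of the sites in cytosolic ribosomal protein genes, 47.0% ± 0.930 lay at the stop codon and 15.6% ± 3.62 in the coding sequence (SD, n = 3 lists), against 13.4% ± 0.433 and 56.1% ± 0.559 over all genes. The ribosomal shares rest on 25, 26 and 32 sites, and all shares by group count only the rejoined sites of list 1. In chromatin modifiers 78.1% ± 0.633 of sites were coding and 6.25% ± 0.792 at the start codon, and in extracellular matrix genes 80.5% ± 3.10 were coding. Histone genes had no coding sites in any list, and 90.3% ± 8.67 of their few sites were at the stop codon. The lengths of the coding sequences, which differ widely between these groups, were not available for the build of the files, and their part in these shares was not tested.

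Sites were frequent among genes of RNA modification. Of the 42 members of this list, which counts NAT10 and THUMPD1, 27 (64.3%) had a site in all 3 lists. The list holds enzymes and also proteins that do not modify RNA themselves, such as YTHDF1 and NOP10. CMTR1, which methylates the first nucleotide after the cap, had 8, 9 and 10 sites with highest folds of 312, 446 and 473. TRMT61A, the catalytic subunit of a transfer RNA m1A methyltransferase, had 4 sites in each list with folds of 240, 235 and 233, and the pseudouridine synthase TRUB1 had 4, 6 and 5 sites. DKC1, GAR1 and METTL14 had none.

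Genes of metabolism and stress lay mostly above the background. In glycolysis, the pentose phosphate pathway and the citrate cycle, 38 of 50 (76.0%) had a site in all 3 lists. The platelet phosphofructokinase gene PFKP had 7, 9 and 12 sites, the hexokinase gene HK2 5, 8 and 6, and ACLY, which makes cytosolic acetyl-CoA, 7, 6 and 7. GAPDH, TPI1, LDHA and ALDOC of the same pathway had none in any list. Cholesterol and fatty acid synthesis reached 63.2%, led by the acetyl-CoA carboxylase gene ACACA with 9, 14 and 13 sites. The unfolded protein response and chaperones reached 62.5%, with 5 sites in each list for the disulfide isomerase gene PDIA4, and none for the chaperone gene HSPA5 or for ATF4 and DDIT3, transcription factors of that response. Autophagy and lysosome genes had 27 of 54, and the respiratory chain and ATP synthase 34.9% (30 of 86). Only 1 of these groups, the respiratory chain, changed its side of the background under an alternative setting, falling below it when sites of fold under 4 were left out.

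Lists for tubular injury and fibrosis followed. Of 64 extracellular matrix genes, 38 (59.4%) had a site in all 3 lists. COL4A1, a chain of basement membrane collagen IV, had 10, 12 and 15 sites with highest folds of 75.5, 91.0 and 107, and COL18A1 had 9, 12 and 13 with 178, 226 and 214. The fibrillin gene FBN2 had 7, 15 and 13, and 4 of its 18 regions were in all 3 lists. COL1A2, COL3A1, COL4A3 and COL4A4 had none. Integrins, adhesion and actin genes reached 58.2%, with MYH9 and the actin cross-linkers ACTN1 (9, 8 and 9 sites) and ACTN4 (8, 7 and 9) among the members with the most sites, while the integrin gene ITGB1 had none.

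Of 48 genes of TGF-beta, activin and BMP signalling, 21 (43.8%) had a site in all 3 lists. ACVR1, a type I receptor for BMP and activin, had 5 sites in each list with highest folds of 35.7, 35.4 and 36.4. SMAD3 and SMAD2, which carry the TGF-beta signal to the nucleus, had 4, 5 and 4, and 3, 3 and 5 sites. SKI, a repressor of SMAD transcription, had 4 in each list, with folds of 55.2, 62.2 and 80.8. Chosen after its values were seen, the inhibitory SMAD7 had 2 sites in each list and the highest folds of this group, at 607, 551 and 438, and the ligand TGFB1 had 1, 2 and 2 sites, with folds of 10.98, 35.7 and 32.4. TGFB3, TGFBR1, TGFBR3 and SMAD5 had none. The NF-kappaB, cytokine and inflammasome list reached 61.5%, with NFKB1 at 7, 6 and 5 sites and 1 of its 10 regions in all 3 lists. The p53 response and cell cycle list reached 55.2%, led by the replicative helicase subunits MCM6 (7, 6 and 7), MCM3 (5, 6 and 7) and MCM2 (6, 6 and 7). The cyclin-dependent kinase inhibitors CDKN1B, CDKN2A and CDKN2B had none.

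Large gene families spread over the whole range. Vesicle coats and tethers reached 72.3%, with 7 sites of SEC31A, a COPII coat subunit, in each list, all 7 regions shared. USP deubiquitinases reached 58.8%, kinesins 43.6% and ABC transporters 37.8%. ZNF zinc finger genes (146 of 509, 28.7%) and solute carriers (94 of 350, 26.9%) lay near the background, and without list 1 the ZNF genes passed above it. Myosins reached 23.8%, RAB GTPases 22.2%, keratins 16.4%, protocadherins 12.1% and ADAM and ADAMTS proteases 10.3%. Keratin-associated proteins (2 of 94, 2.13%) and olfactory receptors (1 of 392, 0.255%), families with narrow expression, were lowest. OR51E2, a receptor also known from prostate, was that 1 receptor gene, with 1 site in each list at folds of 49.3, 31.6 and 21.4. Members of these families are similar in sequence, and reads can be split between copies.

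**Figure D5:**
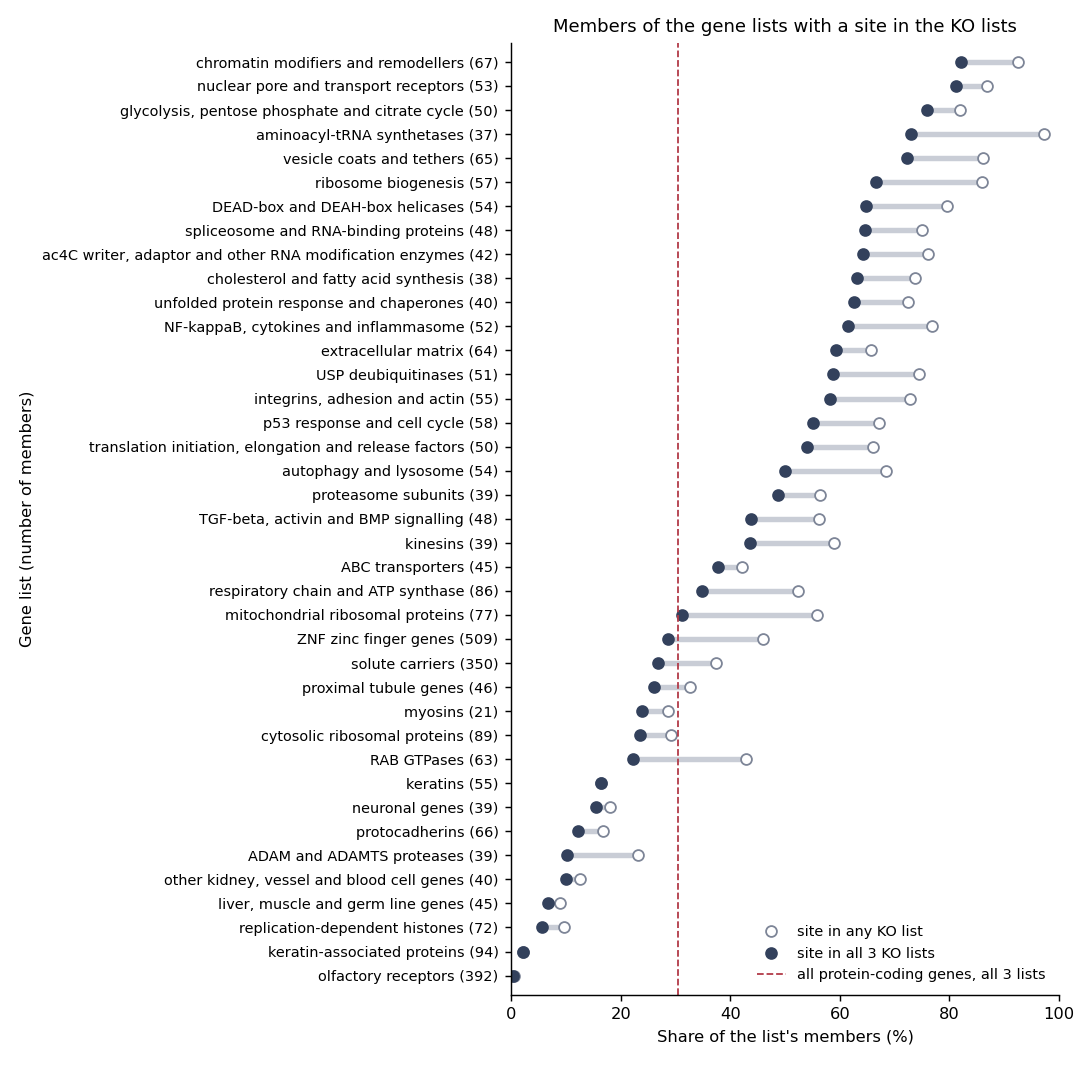
Each row is a gene list with its number of members (1 of the 40 lists is not shown), with a filled dot for the share of members (%) with a site in all 3 KO lists, an open dot for any KO list, and a dashed line at 30.4%, the share of all protein-coding genes in all 3 lists. Chromatin modifiers (82.1%) and nuclear pore genes (81.1%) stand highest, and keratin-associated proteins (2.13%) and olfactory receptors (0.255%) lowest.

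Lists of cell type genes were set beside the same background, which cannot identify the cells. The proximal tubule list also holds general epithelial keratins such as KRT8. Of 46 proximal tubule genes, 12 (26.1%) had a site in all 3 KO lists and 15 in any, against 4 of 40 for other kidney, vessel and blood cell genes, 6 of 39 (15.4%) for neuronal genes and 3 of 45 (6.67%) for liver, muscle and germ line genes. The proximal tubule share lay below the 30.4% of all protein-coding genes in all 3 lists, and its 32.6% in any list below 41.5%. The brush border peptidase ANPEP had 3 sites in each list, the gamma-glutamyltransferase GGT1 had 2, 3 and 3, and the epithelial keratin KRT8 2, 2 and 3. The endocytic receptor LRP2, the endocytosis proteins AMN and DAB2, and the phosphate transporter SLC34A1 had none. Neither the presence nor the absence of a site is a measure of expression. The listed genes of other tissues ranged widely in fold. The neuronal genes GAD1, with 2 sites in each list, and GRIN2B, with 4, 3 and 2, had highest folds of 126, 106 and 104, and of 114, 105 and 119. The neuronal tubulin gene TUBB3 had highest folds of 5.77, 11.1 and 13.9. APOB, the liver apolipoprotein B gene, had 1 site per list with folds of 30.5, 26.1 and 25.5, whereas the albumin gene ALB had highest folds of 2.94, 4.86 and 3.97. The median highest fold of the genes with a site in all 3 lists was 42.7 for the 6 neuronal genes and 8.12 for the 3 liver, muscle and germ line genes, against 12.2 over all such genes.

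The files annotate genes with KEGG pathways and Gene Ontology (GO) terms. Of 3031 genes with a KEGG pathway and a site in any KO list, 2277 (75.1%) had a site in all 3, and for the GO columns the share was 73.3% for processes, 73.6% for components and 73.7% for functions. The KEGG pathways with the most genes in all 3 lists were endocytosis (124), MAPK signaling (102), pathways in cancer (100), PI3K-Akt signaling (90), RNA transport (87), and, with 83 each, the spliceosome and regulation of the actin cytoskeleton. Rap1 signaling (80), ubiquitin mediated proteolysis (77) and the cell cycle (76) followed. The 2 largest terms of each GO column were nucleus (2111 genes) and cytoplasm (2100) among components, protein binding (3633) and ATP binding (712) among functions, and DNA-templated transcription (636) and small molecule metabolic process (553) among processes. These counts follow the size of each term, and terms share genes.

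The share of a term's listed genes that recurred in all 3 lists does not add up with size as these counts do. It was ranked over 93 KEGG pathways, and in the smaller ones a few genes move it. Among KEGG pathways with at least 30 listed genes, it was highest for chemokine signaling (67 of 74, 90.5%), bacterial invasion of epithelial cells (37 of 41, 90.2%), ribosome biogenesis (49 of 55, 89.1%), regulation of the actin cytoskeleton (83 of 94, 88.3%) and RIG-I-like receptor signaling (27 of 31, 87.1%). The chemokine pathway was led by the RAC exchange factors DOCK2 (10, 11 and 11 sites) and PREX1 (5, 11 and 10). The lowest shares were those of N-glycan biosynthesis (17 of 31, 54.8%), peroxisome (18 of 32, 56.3%), amino sugar metabolism (20 of 31, 64.5%), p53 signaling (26 of 40) and RNA degradation (33 of 50, 66.0%).

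For the GO columns the same share was taken over terms with at least 30 listed genes. These were 250 processes, 146 components and 134 functions, and small terms have the same limit. Caveola (32 of 35, 91.4%), stress fiber and basement membrane (30 of 33, 90.9% each), nuclear pore (45 of 50) and receptor complex (43 of 48, 89.6%) were highest among components. Guanyl-nucleotide exchange factor activity (48 of 53, 90.6%) and enzyme activator activity (29 of 32, 90.6%) were highest among functions, and translesion synthesis (29 of 32, 90.6%) and base-excision repair (30 of 34, 88.2%) among processes. The repair terms were led by the clamp loader subunit RFC1 (5, 6 and 7 sites), the DNA ligase LIG1 (9, 8 and 11) and the ubiquitin ligase HUWE1 (11, 14 and 12). The lowest share was that of the membrane of the intermediate compartment between endoplasmic reticulum and Golgi among components (21 of 39, 53.8%), of mitochondrial translation among processes (32 of 58, 55.2%) and of cytokine activity among functions (23 of 39, 59.0%). Listed genes of mitochondrial translation had on average 1.42 sites per list, and those of the stress fiber 3.87. The number of sites per gene was not held equal between terms.

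Across the autosomes and the X chromosome, the share of protein-coding genes with a site in all 3 KO lists ran from 22.99% (177 of 770) on chromosome 4 to 41.2% (186 of 451) on chromosome 22. Chromosome 16 followed with 37.0% (316 of 854) and chromosome 20 with 34.3% (184 of 537). The gene-rich chromosome 19 stood at 31.6% (459 of 1451), close to the 30.4% over all protein-coding genes.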

How the data were processed

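ac4C-RIP-seq sites of the 3 KO pairs of IP and input were used, 1 deposited list of mRNA sites per pair. Named in the submitters' processing notes, without roles, are HISAT2 2.0.4, cutadapt 1.9.3 and hg38. Sites were called with MACS, per the peak names in the deposited lists (no version is given in the sources used here). The deposited score is the negative log10 of the p-value times 10, per the file headers, and was at least 50 in each list. The deposited fold enrichment is the authors' ratio of IP over input, at least 2. The deposited false discovery rate is in percent, per its header and values. Length and transcript part are the authors' too. Depth is unknown and replicates were not pooled.

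In list 1 the coordinate and gene columns stood in different row orders: 1 row agreed as deposited, and 4.43% of rows lay on their gene's chromosome. They were rejoined on equal score and length, ties being settled by the gene's chromosome, which paired 13344 rows (99.9% on the gene's chromosome) and left 474, of which 459 had the score 3100 that 2171 sites of the list share. On shuffled lists 2 and 3 the join paired 98.2% and 98.7% of rows, all to the right gene. The score 3100 was held by 10.1% and 7.88% of the sites of those lists, against 15.7% in list 1. Gene counts do not need the join. Counts of sites by part, apart from those of named genes and gene lists, do not need it either. Folds by part, and by the number of lists a region was found in, do need it and leave out those 474 rows. The regions of named genes likewise count rejoined sites only.

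Symbols were updated with the RefSeq table for GRCh38.p14, used for names, biotype and chromosome only, and 126, 158 and 172 sites had no match and kept their name. Across the 3 lists 10 empty lines were left out, and 4749 annotation cells blanked in the copies used here do not count in the terms. Sites were merged at an overlap of at least 1 base, without strand. Genes were named by rule: NAT10 and THUMPD1; the 15 genes with most sites per list; the 15 with the highest lowest fold over sites of at least 50 bases, and the 5 such genes with 1 site per list; the 5 with sites in most parts; the 5 longest recurrent sites; from each gene list the 4 members with most sites and up to 4 with none; and the 10 largest terms per column with the 5 highest and 5 lowest shares among terms of at least 30 genes. A few genes and 1 gene list that these rules name are not reported here. Members, lists and rules were chosen with earlier results of these data known. No test was made, since 1 condition was described over 3 lists. Alternatives were a fold of at least 4, a score of at least 100, a length of at least 50 bases, identical boundaries, rejoined rows only, the files' gene names, and leaving out each list. Python 3.11.15, pandas 2.3.3, numpy 2.4.6 and matplotlib 3.10.9 were used.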

Additional observations from a re-analysis of the deposited data

How the results depend on the processing

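Of 61 alternative values, 50 stayed within the spread between lists or, for counts, within 1.5 times, and 11 moved; the 6 that bear on the number of gene lists above the background (24 to 26, against 25) were chosen after seeing the data. Requiring identical starts and ends gave 7627 regions in all 3 lists, against 11526, and a mean Jaccard index of 0.413, against 0.643. Leaving out 1 list at a time gave Jaccard indices of 0.594 to 0.690, the lowest without list 2. A fold of at least 4 gave 2.06 sites per gene, a median length of 181 bases, a median fold of 8.81 and a coding share of 55.1%. A score of at least 100 gave 2.06 sites per gene and a median fold of 8.85. A length of at least 50 bases gave a median length of 195 bases and a coding share of 53.7%. The fold and length alternatives raise their own medians by construction. NAT10 averaged 3 sites per list at a fold of at least 4 and 3.5 to 7 with 1 list left out, so its number rests on weak sites and on which list is used. Genes with a site in all lists used numbered 5412 to 7150 over all alternatives, the highest without list 1. No paired analysis was possible because 1 condition was described and the deposited lists join each IP with its input already. Read depth, which bounds every count of sites here, is not in the files.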
